A study of Homo sapiens with 8 samples.

Results

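TR3 is a subclone of the human T cell leukaemia line Jurkat that had become resistant to TRAIL, and it is compared here with the parental, TRAIL-sensitive line (WT). The comparison takes the 2 TR3 arrays and the 2 WT arrays, 4 of the 8 arrays of the series, by their labels alone, and describes every gene detected on both arrays of either line. The other 4 arrays hold the sister subclones TR1 and TR2. All 3 subclones were obtained by growing Jurkat cells under 1000 ng/mL TRAIL for 12 weeks, whereas WT cells were untreated. The medium was the same for the 4 lines, Iscove's modified Dulbecco's medium with fetal bovine serum and antibiotics, and per the labels no treatment was given to the cells from which RNA was taken. The 2 arrays of a line are biological duplicates, so the p-values measure the spread between such duplicates. TR3 is 1 subclone, and no unselected subclone was profiled. Effects of the selection, of subcloning and of time in culture therefore cannot be told apart.

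TRAIL, encoded by TNFSF10, is a ligand of the tumour necrosis factor family. It binds the death receptors DR4 (TNFRSF10A) and DR5 (TNFRSF10B), which recruit the adaptor FADD and the initiator caspase-8 into a death-inducing signalling complex. The inhibitor c-FLIP (CFLAR) can block caspase-8 in that complex, decoy receptors such as TNFRSF10C bind the ligand without signalling, and proteins of the BCL2 family decide whether mitochondria amplify the signal. Jurkat cells are a common model of death receptor signalling and of T cell receptor signalling.

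Between 12408 and 13437 of the 22184 probes were detected per array across the series, 12934 and 13152 of them on the TR3 arrays and 12836 and 13153 on the WT arrays. Duplicate arrays correlated over the probes tested at 0.997 in TR3 and 0.995 in WT, and a TR3 array correlated with a WT array at 0.995 to 0.997. Of 12 T cell markers, 11 were on the array and all 11 were detected on the 4 TR3 and WT arrays, CD3D, CD3E, CD247, CD2 and LCK among them. Their summed intensity was 17870 and 17560 in TR3 and 18450 and 18020 in WT. Of the markers of other cell types, MS4A1, PAX5 and CD22 (B cells), CD14, CSF1R and MPO (myeloid cells), KLRD1 and KLRF1 (NK cells), HBB (erythroid cells), EPCAM, KRT8 and KRT19 (epithelial cells) and COL1A2 and DCN (fibroblasts) were not detected on any of these 4 arrays. CD79A and CD79B of the B cell list, CD68 of the myeloid list, NCAM1 of the NK list and HBA1 of the erythroid list were detected on all 4. The summed intensity was 431 and 495 in TR3 and 420 and 510.5 in WT for the B cell list and 377 and 376 in TR3 and 384 and 389 in WT for the myeloid list. The lines overlapped in the former and not in the latter. None of the 7 marker lists held a gene called by limma (0 called), and of their 19 tested genes 0 were higher and 3 lower at an unadjusted p under 0.05.

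TR3 differed from WT at few genes, and mostly by small amounts. Of 12843 probes tested, 131 were higher in TR3 (1.02%) and 179 lower (1.39%) at a Benjamini-Hochberg adjusted p under 0.05 in limma, with the replicate number as a block. The probes stand for 10490 genes, of which 107 were higher (1.02%) and 153 lower (1.46%). Without the block, 11 probes were higher and 28 lower. Among the called probes, 31 had no gene symbol and 2 belong to Y-linked genes, which are not named here. The median log2 difference was 0.41 among the probes called higher and -0.41 among those called lower, and the smallest called difference was 0.32. Only 1 probe higher and 7 lower passed a 2-fold difference, and 17 and 26 passed 1.5-fold. All 310 called probes moved the same way in both replicate pairs, and in 12 of them the values of the groups overlapped. Among all probes tested, the TR3 and WT values did not overlap at 5056 (39.4%). The counts of calls moved with single arrays: they were 182 and 231 without WT replicate 1, 35 and 56 without TR3 replicate 1, 26 and 46 without TR3 replicate 2, and 54 and 62 without WT replicate 2.

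**Figure D1:**
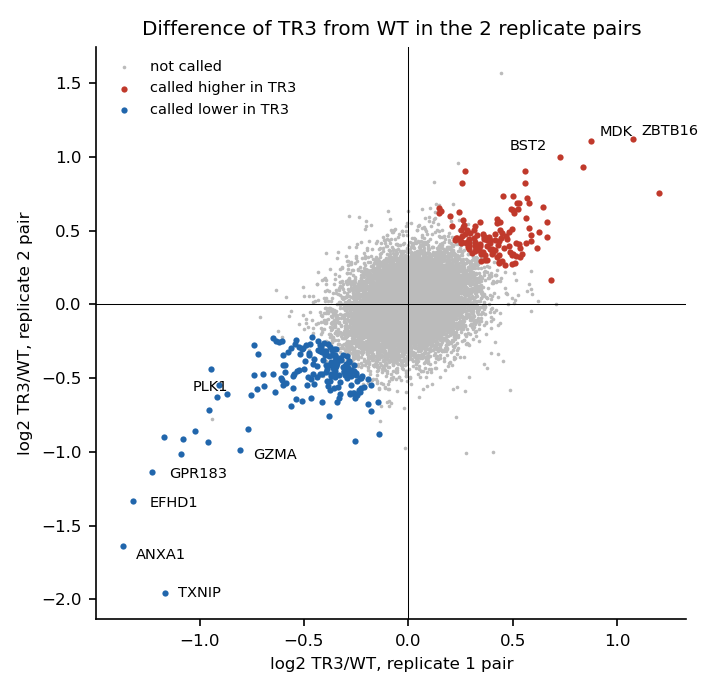
Log2 difference between TR3 and WT in the replicate 1 pair (horizontal axis) and the replicate 2 pair (vertical axis), 1 point per tested probe. Probes called higher (red) lie in the upper right and those called lower (blue) in the lower left, with TXNIP and ANXA1 farthest down and ZBTB16 and MDK farthest up among the named genes.

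The most lowered genes were TXNIP, ANXA1, EFHD1 and GPR183. Values are processed intensities, given for replicates 1 and 2 in turn, and differences are log2 units of TR3 over WT ± the standard error (SE, n = 2 arrays per line). TXNIP, which encodes a protein that binds thioredoxin and restrains glucose uptake, read 56.1 and 53.1 in TR3, where it was not detected, and 126 and 206 in WT. Both WT values lay above both TR3 values, and TXNIP was at least 2.4-fold lower in TR3, measured against the lowest intensity of a detected probe (adjusted p = 9.4e-06, limma). ANXA1, the gene of the phospholipid-binding protein annexin A1, read 923 and 1056 in TR3 and 2378 and 3294 in WT. It was thus high in WT on both arrays with no overlap, and was 2.84-fold lower in TR3 (SE of the log2 difference 0.13; adjusted p = 1.3e-06, limma). EFHD1, which encodes a calcium-binding EF-hand protein, read 80.6 and 79.4 in TR3 and 201 and 200.2 in WT. The duplicates of each line were close together and the lines apart, with a fall of 1.33 ± 0.09 (adjusted p = 3e-08). GPR183, the oxysterol receptor EBI2 that positions lymphocytes in lymphoid tissue, read 99.7 and 92.9 in TR3 and 233 and 204 in WT. It was low in both TR3 samples and fell by 1.18 ± 0.13 (adjusted p = 9.7e-06).

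For a further 6 of the 12 most lowered genes the TR3 arrays held only a bound. COBLL1, ZNF544, PPP2R2B, CABCOCO1, YAP1 and JCHAIN were detected on both WT arrays, at 87.0 to 135, and on neither TR3 array, at 51.0 to 62.9. COBLL1 was at least 1.84-fold lower, the zinc finger gene ZNF544 at least 1.77-fold, PPP2R2B, a regulatory subunit of protein phosphatase 2A, at least 1.72-fold, YAP1 at least 1.65-fold, CABCOCO1 at least 1.61-fold and JCHAIN at least 1.36-fold. The adjusted p of these 6 lay between 1.9e-06 and 9.7e-06 (limma). SH3GL2, which encodes the endocytic protein endophilin A1, read 169 and 116 in TR3 and 328 and 221 in WT, with a difference of -0.95 ± 0.10 (adjusted p = 9.6e-06). GZMA, the gene of the serine protease granzyme A, read 426 and 515 in TR3 and 745 and 1024 in WT. Both genes were lower on each TR3 array than on either WT array, and GZMA fell by 0.90 ± 0.12 (adjusted p = 0.0002). All 12 genes kept their call without any 1 array, while without the replicate block the adjusted p of SH3GL2 was 0.094 and that of GZMA 0.089. With background-corrected intensities the fitted differences, which are no bounds, lay further from 0, with TXNIP at -2.57, EFHD1 at -2.02, COBLL1 at -1.92, ZNF544 at -1.88, PPP2R2B at -1.82, CABCOCO1 at -1.72, YAP1 at -1.59 and JCHAIN at -1.39.

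ZBTB16 and MDK led the raised genes. ZBTB16 encodes PLZF, a zinc finger transcription factor of innate-like T cells, and read 343 and 395 in TR3 and 163 and 181 in WT. The 2 lines did not overlap, and the gene rose by 1.10 ± 0.09 (adjusted p = 9e-07, limma). Its other probe, at 172 and 155 in TR3 and 74.9 and 92.0 in WT, rose by 0.98 ± 0.10 (adjusted p = 6.4e-06). MDK, which encodes the heparin-binding growth factor midkine, read 320.2 and 400.4 in TR3 and 175 and 185 in WT, high on both TR3 arrays, and rose by 0.99 ± 0.09 (adjusted p = 1.9e-06). FGD3 read 347 and 300.0 in TR3 and 194 and 157 in WT and rose by 0.88 ± 0.11 (adjusted p = 0.00012). BST2, the interferon-inducible membrane protein tetherin, read 125 and 185 in TR3 and 75.5 and 92.2 in WT. Its TR3 samples differed from each other more than its WT samples did, and both stood above WT, with a rise of 0.86 ± 0.10 (adjusted p = 1.7e-05).

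The other 8 of the 12 most raised genes rose by 0.61 to 0.73. GLB1L3, a relative of beta-galactosidase, read 289 and 347 in TR3 and 196 and 185 in WT, and its other probe was also called (0.42 ± 0.10, adjusted p = 0.031, limma). SPTAN1, the gene of a non-erythroid alpha-spectrin of the membrane skeleton, was the brightest of the 12 and read 3502 and 4258 in TR3 and 2380.0 and 2401 in WT. HOXC6, a homeobox gene, read 338 and 345 in TR3 and 216 and 219 in WT. In each of these 3 genes both TR3 values lay above both WT values. CLIP3, which encodes a microtubule-associated protein, rose by 0.63 ± 0.08 (adjusted p = 0.0002), and PMEPA1, a membrane protein gene induced by TGF-beta, by 0.62 ± 0.10 (0.001). SHISA2 stood at 0.65 ± 0.17 (0.047), HEPN1 at 0.61 ± 0.11 (0.0042) and MYT1, a zinc finger transcription factor of neural cells, at 0.61 ± 0.09 (0.00098). A second HOXC6 probe gave no call (-0.03 ± 0.10), nor did a second PMEPA1 probe (0.33 ± 0.10, adjusted p = 0.076). The calls of SPTAN1 and MYT1 were lost without TR3 replicate 2 (adjusted p = 0.059 and 0.084), that of HEPN1 without TR3 replicate 1 or WT replicate 2 (up to 0.094), and that of SHISA2 without any TR3 or WT array (up to 0.41). Without the replicate block FGD3 (0.1), BST2 (0.078), GLB1L3 (0.073), SPTAN1 (0.079), HEPN1 (0.21) and SHISA2 (0.33) were not called.

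**Figure D2:**
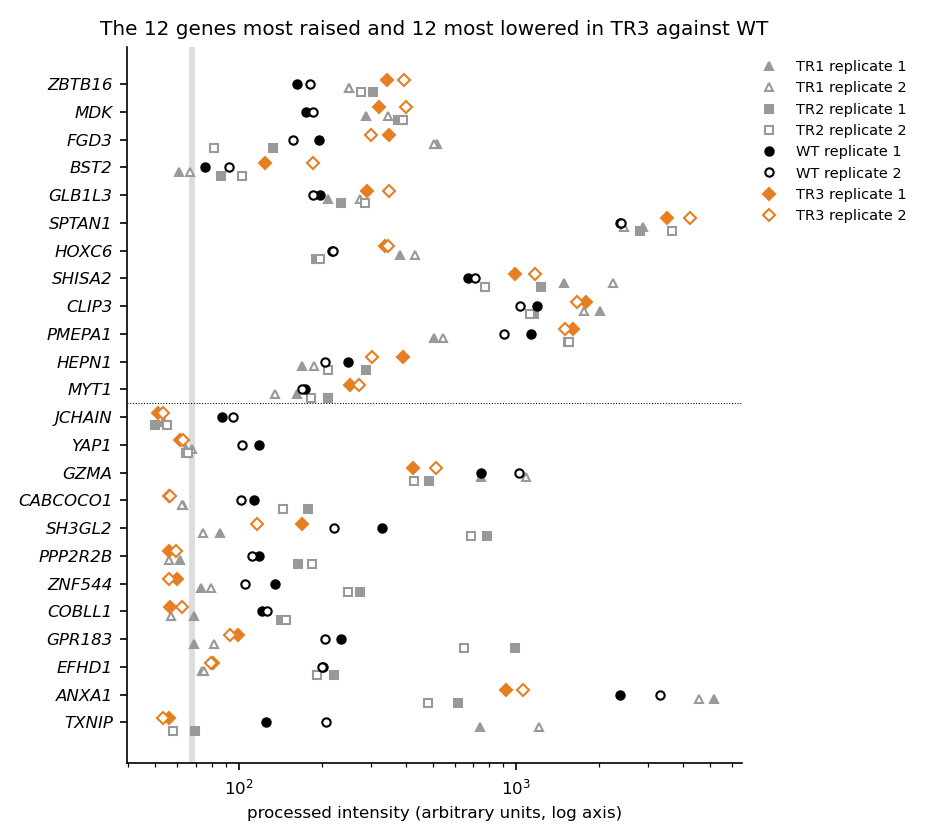
Processed intensity (arbitrary units, log axis) of the 12 genes most raised and the 12 most lowered in TR3, on each array of TR3 (orange diamonds), WT (black circles), TR1 (grey triangles) and TR2 (grey squares); filled symbols are replicate 1, open symbols replicate 2, and the grey band spans the lowest intensities of a detected probe. TR3 and WT do not overlap in any of the 24 genes, and 7 of the 12 lowered genes lie below the band in TR3.

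Among genes of TRAIL and its receptors, only the ligand was called. Of 6 genes, all on the array, 3 were tested and 1 was lower, against 1.46% of all genes called lower. TNFSF10 read 79.1 and 77.4 in TR3 and 93.7 and 118 in WT, so that both TR3 values lay below both WT values, and it fell by 0.43 ± 0.10 (adjusted p = 0.024, limma). TNFRSF10B, the gene of DR5, read 440.4 and 518 in TR3 and 431 and 593 in WT. These values overlap, and the difference was -0.08 with a 95% interval from -0.27 to 0.10 (adjusted p = 0.72). The decoy receptor gene TNFRSF10C stood near background at 70.1 and 70.3 in TR3 and 73.9 and 60.8 in WT (0.07 ± 0.09, adjusted p = 0.8). The probes of TNFRSF10A, TNFRSF10D and TNFRSF11B did not pass detection on both arrays of either line and were not tested, and FAS was not analysed here. In a bulk sample, fewer cells with a transcript and less of it per cell cannot be told apart.

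Of 10 tested members of the death-inducing complex and its regulators, 1 was lower and none higher, against 1.46% and 1.02% of all genes. That gene was FAIM, which encodes an inhibitor of death receptor-induced apoptosis in lymphocytes. It read 236 and 210 in TR3 and 366 and 249.2 in WT, without overlap, and fell by 0.44 ± 0.09 (adjusted p = 0.016, limma), while its 2 other probes gave -0.16 and -0.05 with no call. CASP8 read 164 and 138 in TR3 and 138 and 164 in WT, a difference of 0.00 with a 95% interval from -0.21 to 0.22. FADD read 878 and 883 in TR3 and 934 and 845 in WT (-0.01, interval from -0.19 to 0.17). CFLAR read 101 on each TR3 array and 108 and 101 on the WT arrays (-0.05, interval from -0.23 to 0.13). In all of these 3 genes the groups overlapped. CASP10 stood at 0.06 ± 0.09, the receptor adaptor TRADD at 0.16 ± 0.10, CASP8AP2 at 0.13 ± 0.08, the deubiquitinase CYLD at 0.05 ± 0.09, DAXX at 0.01 ± 0.08 and PEA15 at 0.00 ± 0.09, each with an adjusted p of 0.49 or more. The TNFSF10 call was lost without either TR3 array or WT replicate 2 (adjusted p up to 0.33) and the FAIM call without TR3 replicate 1 or WT replicate 1 (up to 0.25). Without the replicate block the adjusted p was 0.19 and 0.38, and TNFSF10 stood at -0.77 with background correction.

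The 5 other apoptosis lists held no called gene. Outside them AVEN, which encodes an inhibitor of caspase activation and was looked up after the values were known, was called lower (-0.35 ± 0.09, adjusted p = 0.038, limma), with values that overlapped between the lines. Further genes of cell death outside the lists, likewise looked up afterwards, were also called lower. Among them were GSDMD (-0.40 ± 0.09, 0.017), GSDME (-0.43 ± 0.10, 0.027) and STK17B (-0.45 ± 0.11, 0.03). DIDO1, a further gene of cell death looked up in this way, was called higher (0.43 ± 0.09, 0.018), with values that overlapped between the lines. PERP was called lower near background, at 51.2 and 51.2 in TR3 and 70.2 and 70.9 in WT (adjusted p = 0.0037, limma). Its TR3 values lay below the lowest intensities of a detected probe there (67.4 and 66.7), so the size of its fall is not known. These genes outside the lists were picked by hand, so no count of them stands beside the 1.46% of all genes called lower and 1.02% higher. Whether their calls held without single arrays or without the block is not given here. Neither the 5 tested genes of lymphotoxins, TNF and other death receptors, nor the 4 anti-apoptotic and 12 pro-apoptotic members of the BCL2 family, nor the 11 caspase, apoptosome and nuclease genes, nor the 5 inhibitors of apoptosis passed the test (0 of each list, limma). At an unadjusted p under 0.05 these lists held 2, 1, 0, 0 and 1 genes. Their median differences were -0.03, -0.01, 0.06, -0.08 and 0.00, against 0.00 over all genes tested. TNFRSF25, the T cell death receptor DR3, came closest, at 154 and 164 in TR3 and 118 and 137 in WT (0.32 ± 0.09, adjusted p = 0.06, limma). MCL1 read 194 and 189 in TR3 and 211 and 241 in WT (-0.24 ± 0.09, adjusted p = 0.18), and BCL2 read 317 and 279 in TR3 and 261 and 264 in WT (0.18 ± 0.09, adjusted p = 0.32). The groups did not overlap on these probes of the 3 genes, as in 39.4% of all probes tested. A second MCL1 probe read 193 and 195 in TR3 and 202 and 188 in WT, which overlap (-0.01 ± 0.09). A second BCL2 probe, near background, stood at -0.04 ± 0.09. BIRC6, a giant inhibitor of apoptosis, stood at 0.30 ± 0.09 (adjusted p = 0.09) and the BH3-only gene HRK at 0.16 ± 0.08 (0.37). None of the 9 tested O-glycosylation enzyme genes, whose products modify death receptors, was called (0, with 2 lower at an unadjusted p under 0.05), with GCNT1 at -0.29 ± 0.09 (0.087) and GALNT1 at -0.21 ± 0.09 (0.25).

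Genes of mitosis stood slightly lower in TR3, with PLK1 the clearest. Of 32 mitosis and G2/M genes, all tested, 2 were lower and 0 higher, and at an unadjusted p under 0.05 8 were lower and 0 higher. Over all 10490 genes 1.46% were called lower, and 881 were lower and 799 higher at an unadjusted p under 0.05. The list's median was -0.12, with 26 of 32 below 0, against a median of 0.00 over all genes, 51.1% of which lay above 0. PLK1, the Polo-like kinase of mitotic entry and spindle assembly, read 277 and 296 in TR3 and 467 and 454 in WT. Both TR3 arrays were low and both WT arrays high, and PLK1 fell by 0.69 ± 0.09 (adjusted p = 0.00011, limma). CCNB1, the mitotic cyclin B1, read 1450.0 and 1346 in TR3 and 1737 and 1840.0 in WT, again without overlap, and fell by 0.36 ± 0.09 (adjusted p = 0.043). CCNA2 read 3879 and 3877 in TR3 and 4794 on both WT arrays (-0.31 ± 0.08, adjusted p = 0.057). CDC25C, a phosphatase that activates the mitotic kinase, stood at -0.28 ± 0.08 (0.083). No gene of the 23 tested in DNA replication was called (0, with 1 higher and 1 lower at an unadjusted p under 0.05), the median was 0.06, and PCNA stood at -0.19 ± 0.08 (0.27). The 2 other, dimmer PCNA probes stood the other way, at 0.09 ± 0.09 and 0.17 ± 0.08, with no call. PLK1 kept its call without any 1 array (adjusted p up to 0.0052) and without the block (0.0097). The CCNB1 call was lost without any array of TR3, WT or TR2 (up to 0.54) and without the block (0.21).

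The promoters of PLK1 and CCNB1 are shown because these were the members of the mitosis list that fell. Outside the list, CDCA3 (-0.41 ± 0.10, adjusted p = 0.027, limma) and CCNF, the gene of cyclin F (-0.40 ± 0.10, 0.034), both looked up after the values were known, were also called lower. CDC16, a subunit of the anaphase-promoting complex that is also outside the list, was called higher (0.39 ± 0.09, adjusted p = 0.018, limma). Many genes of mitosis carry a cell cycle homology region (CHR, TTTGAA) beside CCAAT boxes that bind the factor NF-Y. The sequences are the 250 bases before the annotated start in RefSeq GRCh38.p14, with CHR and CCAAT matches on either strand in capitals: PLK1 at chr16:23678639-23678888 (plus strand) and CCNB1 at chr5:69166900-69167149 (plus strand).
PLK1: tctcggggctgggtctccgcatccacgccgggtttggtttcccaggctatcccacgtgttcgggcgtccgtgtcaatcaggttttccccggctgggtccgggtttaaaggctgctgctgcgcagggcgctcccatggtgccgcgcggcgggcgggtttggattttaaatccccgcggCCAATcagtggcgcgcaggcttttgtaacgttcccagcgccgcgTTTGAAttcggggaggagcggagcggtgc
CCNB1: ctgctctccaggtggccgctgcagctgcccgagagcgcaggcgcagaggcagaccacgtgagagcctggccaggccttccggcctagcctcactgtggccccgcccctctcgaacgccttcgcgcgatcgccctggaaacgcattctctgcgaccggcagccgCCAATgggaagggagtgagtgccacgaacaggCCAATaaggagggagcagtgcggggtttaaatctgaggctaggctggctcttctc
In the PLK1 promoter the CCAAT box starts at -73 and the CHR at -29. The CCNB1 promoter holds CCAAT boxes at -87 and -55 and no TTTGAA in this window. Of the 26 tested mitosis genes with a promoter in the table, 13 held a TTTGAA on either strand (50.0%) and 21 a CCAAT (80.8%), against 13.3% and 32.0% of 35116 promoters. Such matches describe the sequence and are no measure of binding. The 35116 promoters are not limited to the 10490 genes tested, so the shares are not like for like.

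Most genes of T cell receptor signalling were not called, and a few were lower. The list's median was -0.06, with 16 of 24 genes below 0, against a median of 0.00 over all genes. Of 24 tested genes of the T cell receptor complex and its proximal signalling, 2 were lower and 0 higher (7 and 1 at an unadjusted p under 0.05), against 1.46% and 1.02% of all genes called lower and higher (881 and 799 of 10490 at an unadjusted p under 0.05). SLA, an adaptor that dampens T cell receptor signalling, read 2008 and 2423 in TR3 and 2770.0 and 3442 in WT and fell by 0.49 ± 0.08 (adjusted p = 0.0021, limma). PTPRC, the phosphatase CD45, read 178 and 174 in TR3 and 258 and 206 in WT and fell by 0.39 ± 0.10 (adjusted p = 0.047), while its dimmer second probe gave 0.06 ± 0.09. In both genes the WT values lay above the TR3 values. VAV1 (0.31 ± 0.09, adjusted p = 0.073) and LAT (-0.29 ± 0.09, 0.09) were not called, and a second, dimmer LAT probe stood at 0.13 ± 0.09.

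Of 29 tested regulators of thymocytes and T cell leukaemia, 1 was higher and 2 lower, against 1.02% and 1.46% of all genes. At an unadjusted p under 0.05, 7 were higher and 4 lower. The higher was ZBTB16, described above. RUNX3, a transcription factor of cytotoxic T cells, read 665 and 947 in TR3 and 1008 and 1256 in WT and fell by 0.50 ± 0.09 (adjusted p = 0.0043, limma), with a second, dim probe at 0.03 ± 0.09. CD1B, a lipid-presenting molecule of immature thymocytes, read 6282 and 6842 in TR3 and 8136 and 8351 in WT and fell by 0.33 ± 0.08 (adjusted p = 0.038). RAG1, a recombinase of antigen receptor genes, read 150.1 and 140 in TR3 and 129 and 87.3 in WT without a call (0.45 ± 0.13, adjusted p = 0.067). BCL11B stood at 0.28 ± 0.09 (0.095).

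Among lymphocyte genes of other lists, 2 of 6 GIMAP GTPase genes, which act in lymphocyte survival, were lower. Over all genes 1.46% were called lower and 1.02% higher. At an unadjusted p under 0.05, 3 GIMAP genes were lower and 0 higher. Those counts were 4 and 0 for B-lineage genes, 3 and 2 for adhesion, 1 and 1 for positioning receptors, and 2 and 0 for cytotoxic granule genes. GIMAP2 read 121 and 123 in TR3 and 183 and 179 in WT and fell by 0.57 ± 0.08 (adjusted p = 0.00049, limma), and GIMAP4 read 2015 and 1811 in TR3 and 2752 and 2634 in WT and fell by 0.50 ± 0.10 (0.013). Neither overlapped between the lines. The list's median was -0.25, with 5 of 6 below 0 and GIMAP7 at -0.39 ± 0.12 (0.083). Of 8 tested B-lineage genes 2 were lower, JCHAIN, the joining chain of polymeric antibodies, and VPREB1, the surrogate light chain gene, which fell by 0.37 ± 0.08 (0.023). IGLL1, the partner of VPREB1, read 458 and 385 in TR3 and 680.4 and 407 in WT, with no call (0.16). Of 17 adhesion genes 1 was lower, ITGAL, the integrin subunit of LFA-1, at 368 and 378 in TR3 and 467 and 598 in WT, which fell by 0.50 ± 0.10 (0.0084). GPR183 was the one lower gene of 11 chemokine and positioning receptors, and GZMA the one of 7 cytotoxic granule genes. S1PR1, which guides lymphocytes out of lymphoid organs, stood at 0.25 ± 0.09 (0.15).

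Among these lymphocyte genes, PTPRC lost its call without TR3 replicate 1 or either WT array (adjusted p up to 0.57), SLA without TR3 replicate 2 (0.073), RUNX3 without TR3 replicate 1 (0.14), and CD1B without any array of TR3, WT or TR2 (up to 0.33). GIMAP4 and ITGAL lost theirs without either TR3 array or WT replicate 2 (up to 0.15 and 0.19), and VPREB1 without any TR3 or WT array (up to 0.36). Without the replicate block the adjusted p was 0.42 for PTPRC, 0.28 for SLA, 0.36 for RUNX3, 0.22 for CD1B, 0.21 for GIMAP4, 0.13 for ITGAL and 0.26 for VPREB1 (limma).

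Of 18 tested interferon-stimulated and RNA-sensing genes, 4 were lower and 0 higher (4 and 2 at an unadjusted p under 0.05), against 1.46% and 1.02% of all genes (881 and 799 of 10490 at an unadjusted p under 0.05). The list's median was 0.04 with 11 of 18 above 0. IFIH1, which encodes the double-stranded RNA sensor MDA5, read 76.2 and 77.1 in TR3 and 101 and 107 in WT and fell by 0.44 ± 0.08 (adjusted p = 0.005, limma). ISG20, an interferon-induced exonuclease, read 299 and 350.0 in TR3 and 402 and 486 in WT and fell by 0.45 ± 0.09 (0.014). Both genes were lower on each TR3 array than on either WT array. IFI16, a DNA sensor, read 1382 and 1367 in TR3 and 1768 and 1807 in WT and fell by 0.38 ± 0.08 (0.019), and IFI35 fell by 0.36 ± 0.09 (0.029). IFITM2 stood at 0.24 ± 0.09 (0.19) and RIGI, the sister sensor of IFIH1, at 0.19 ± 0.08 (0.26). BST2, a gene outside the list that interferon also induces, was raised, as given above. Of 13 tested genes of antigen presentation, 2 were lower: PSMB8, an immunoproteasome subunit, by 0.43 ± 0.09 (0.02), with a second probe also called (-0.39 ± 0.09, 0.027), and TAP2, a subunit of the peptide transporter, by 0.36 ± 0.09 (0.036), with a second probe at -0.04 ± 0.09. HLA-B read 182 and 266 in TR3 and 215 and 301 in WT, which overlap (-0.21 ± 0.10, 0.29).

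The promoters of IFIH1 and ISG20 are shown as the falling interferon-stimulated genes whose window holds an interferon-stimulated response element core (GAAANNGAA), the sequence bound by interferon regulatory factors. Capitals mark the core on either strand. From RefSeq GRCh38.p14, the windows are chr2:162318685-162318934 for IFIH1 (minus strand) and chr15:88638766-88639015 for ISG20 (plus strand), both printed in the gene's direction.
IFIH1: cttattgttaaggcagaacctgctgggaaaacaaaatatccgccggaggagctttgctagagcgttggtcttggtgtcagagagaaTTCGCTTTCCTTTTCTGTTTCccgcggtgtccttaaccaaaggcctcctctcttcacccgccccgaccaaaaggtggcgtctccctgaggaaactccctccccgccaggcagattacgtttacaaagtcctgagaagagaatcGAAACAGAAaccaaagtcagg
ISG20: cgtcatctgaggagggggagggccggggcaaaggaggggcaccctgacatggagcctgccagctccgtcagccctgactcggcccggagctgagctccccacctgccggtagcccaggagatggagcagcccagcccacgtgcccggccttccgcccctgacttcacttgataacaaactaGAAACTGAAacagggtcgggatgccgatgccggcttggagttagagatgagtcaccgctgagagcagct
IFIH1 holds 3 overlapping cores on the opposite strand, at -164, -158 and -152, and 1 at -21, and ISG20 holds 1 at -69. Of 14 tested genes of the list with a promoter in the table, 8 held the core (57.1%), against 6.88% of 35116 promoters. Those 8 include IFIT5, ISG15, OAS3, IFI6, IFI44 and IFITM1, which were not called in TR3. Here too the 35116 promoters are not limited to the 10490 genes tested. The calls of IFIH1, ISG20, IFI16 and IFI35 were each lost without either TR3 array or WT replicate 2 (adjusted p up to 0.12, 0.14, 0.26 and 0.36) and without the replicate block (0.051, 0.27, 0.1 and 0.17, limma). The PSMB8 call was lost without either TR3 array or WT replicate 1 (up to 0.18) and TAP2 without any array of TR3, WT or TR2 (up to 0.4), and without the block at 0.21 and 0.19.

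Metabolic and stress lists held between 0 and 2 calls each, where 1.02% of all genes were called higher and 1.46% lower. In the list of TXNIP, arrestins and the thioredoxin system, 22 genes were tested, TXNIP was lower and NQO1, a quinone reductase of the oxidative stress response, was higher by 0.35 ± 0.09 (adjusted p = 0.033, limma). NQO1 read 522 and 446 in TR3 and 428 and 334 in WT, and thioredoxin reductase TXNRD1 stood at 0.22 ± 0.09 (0.23). Of 25 glycolysis and hypoxia genes, ALDOC, an aldolase, was called lower (-0.59 ± 0.14, 0.025), but its values overlapped, at 1093 and 1329 in TR3 and 1303 and 2530.0 in WT. The highest member of that list, ADM, picked out here after its values were seen, read 394 and 1649 in TR3 and 289 and 556 in WT, with a difference of 1.01 ± 0.44 (0.27). In both genes replicate 2 read higher than replicate 1 in each line. XBP1, a transcription factor of the unfolded protein response, was the one called of 22 genes of amino acid and unfolded protein stress, at 511 and 544 in TR3 and 610.0 and 844 in WT, and fell by 0.44 ± 0.09 (0.013). None of the genes tested was called for cholesterol synthesis (0 of 21), heat shock proteins (0 of 13), immediate-early genes (0 of 17), NF-kB (0 of 18), cell cycle inhibitors and p53 targets (0 of 15), PI3K, AKT and MAPK signalling (0 of 30) or oncofetal RNA-binding genes (0 of 4). Over the 187 genes of all lists without a call, 9 were higher and 12 lower at an unadjusted p under 0.05, against 799 and 881 of the 10490 genes tested. A second probe of INSIG1, in the cholesterol list, was lower (-0.48 ± 0.10, 0.017) where its brighter probe stood at 0.10 ± 0.11. Second probes of PKM (0.37 ± 0.09, 0.032) and the heat shock gene HSPA4 (0.41 ± 0.09, 0.017) were higher where the brighter probes stood at 0.14 ± 0.10 and -0.21 ± 0.10. NQO1 lost its call without either TR3 array or WT replicate 2 (up to 0.41), XBP1 without replicate 2 of TR3 or WT (up to 0.41) and ALDOC without replicate 2 of TR3 or WT or either TR2 array (up to 0.68), and without the block the adjusted p of the 3 genes was 0.42, 0.34 and 0.64.

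Of 12 tested Hippo pathway genes only YAP1, the coactivator of the pathway, was called, and of 6 tested genes of the midkine family and its receptors only MDK. PTN, the relative of midkine, stood at 0.12 ± 0.09 (adjusted p = 0.6, limma). Of 16 RNA exosome genes, 1 was higher. Over all genes 1.02% were called higher and 1.46% lower. The higher exosome gene was DIS3, a catalytic ribonuclease, which read 152 and 144 in TR3 and 101 and 103 in WT and rose by 0.53 ± 0.09 (0.0016). Its duplicates were close together in each line and the lines apart. The call was lost without TR3 replicate 1 (0.083). In total, 464 of the 556 listed genes on the array were tested.

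**Figure D3:**
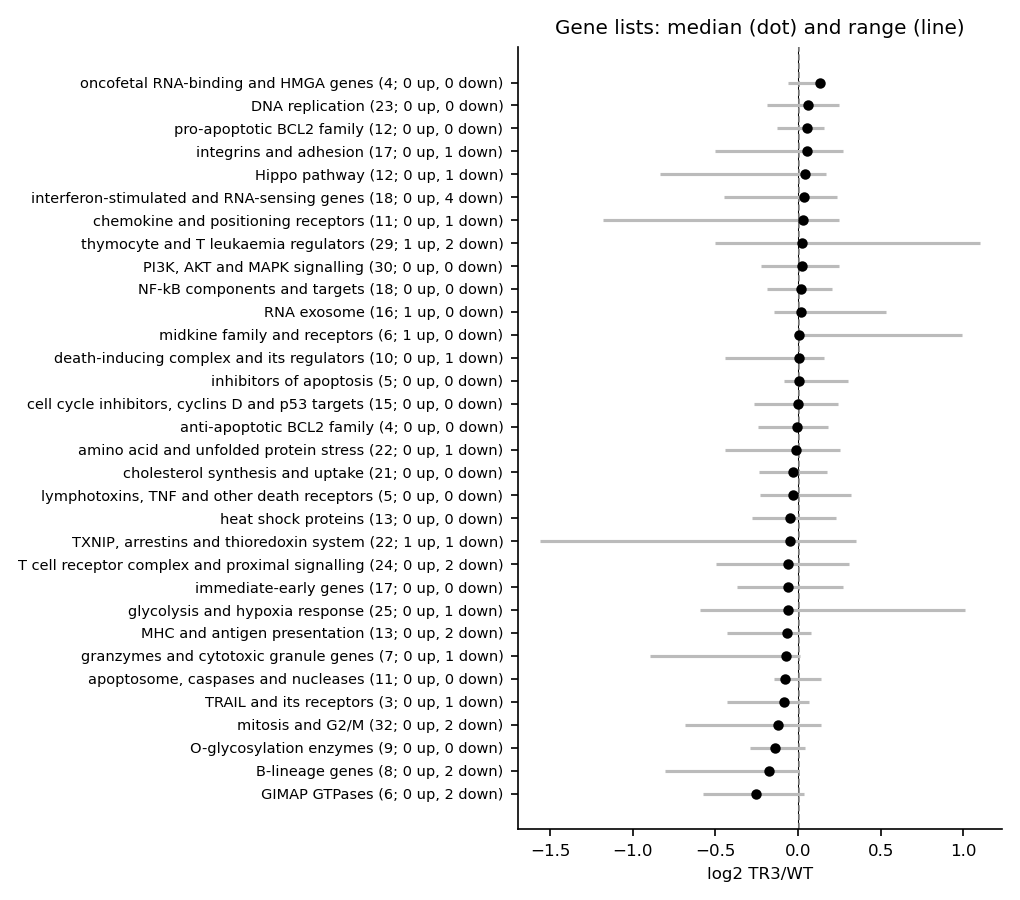
Log2 difference between TR3 and WT in 32 gene lists, ordered by median: dots are list medians, lines run from the lowest to the highest member, and each label gives the genes tested and how many were called higher (up) and lower (down); the dashed line is the median of all genes tested. The GIMAP list has the lowest median (-0.25), and the widest lines are those that hold TXNIP, GPR183, ZBTB16, MDK and ADM.

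Genes of chromosome 13 stood slightly higher in TR3 along the whole chromosome. Chromosomes were looked at after the values had been seen, and the pattern is given without a test. Of 188 tested genes there, 81.9% stood above WT, with a median of 0.14 that was 0.14 in the replicate 1 pair and 0.13 in the replicate 2 pair. On the other 22 chromosomes compared, Y left out, 35.8% to 56.8% of genes stood above WT and the median lay between -0.05 and 0.03. Called higher were 19 genes of chromosome 13 (10.1%), against 1.02% of all genes and at most 1.85% on another chromosome, and 3 were lower. In both replicate pairs 130 of the 188 genes stood above WT (69.1%), against 29.7% of all genes. The shift ran along the whole order of genes: the median over 21 neighbouring genes lay between 0.05 and 0.19 in all 168 windows. It was smaller among dim genes (0.04 in 53 genes of the dimmest class) than among those of middle (0.19, 66 genes) and high intensity (0.16, 69 genes). With background correction these medians were 0.09, 0.21 and 0.17.

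The 19 raised genes of chromosome 13 have varied roles. SAP18, a subunit of the Sin3 deacetylase complex, read 619 and 591 in TR3 and 436 and 385 in WT and rose by 0.56 ± 0.09 (adjusted p = 0.0013, limma). SLC9D1 read 1276 and 1307 in TR3 and 936 and 935 in WT and rose by 0.47 ± 0.09 (0.0045). The kinase gene NEK3 read 103 and 111 in TR3 and 75.9 and 81.3 in WT and rose by 0.45 ± 0.08 (0.0045). The TR3 values of these 3 genes lay above all their WT values. Others were KLF12, a transcriptional repressor (0.44), NHLRC3 (0.42), N4BP2L2 (0.42), CHAMP1 (0.42), CDC16, a subunit of the anaphase-promoting complex (0.39), KCTD12 (0.38), RFC3, a subunit of the clamp loader of DNA replication (0.36), and ING1, a chromatin reader (0.35). USPL1 stood at 0.35, the ubiquitin ligase TRIM13 at 0.34, NUFIP1 at 0.34, the growth factor FGF9 at 0.34, the mitochondrial peptidase MIPEP at 0.34 and CUL4A, the cullin scaffold of a ubiquitin ligase, at 0.33. DIS3 and SHISA2, given above, complete the 19. Second probes of RFC3, ING1, KLF12, N4BP2L2 and NHLRC3 were not called, at 0.00 and 0.15 for the 2 of RFC3, 0.03 for ING1, 0.00 for KLF12, 0.23 for N4BP2L2 and -0.01 for NHLRC3. The 3 lower genes were GPR183, CCNA1, the germ cell cyclin A1 (-0.46 ± 0.09, 0.0066), and LHFPL6 (-0.43 ± 0.08, 0.0094). These calls are close to the threshold: 2 genes of chromosome 13 were called higher without the replicate block or without either TR3 array, 9 without WT replicate 2, and 1 with background-corrected intensities and no block. The median of the chromosome moved only between 0.13 and 0.17 over the 18 alternatives.

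**Figure D4:**
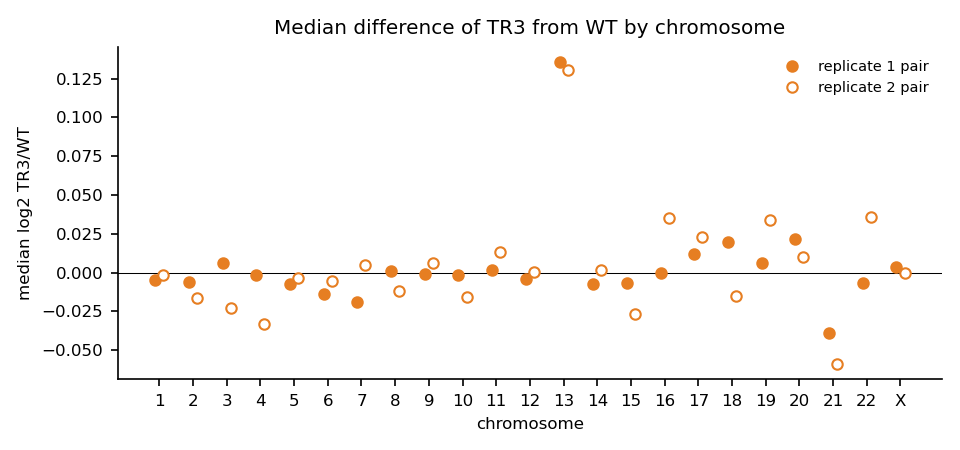
Median log2 difference between TR3 and WT over the tested genes of each chromosome, in the replicate 1 pair (filled) and the replicate 2 pair (open). Chromosome 13 stands at 0.14 and 0.13, and the medians of all other chromosomes in both pairs lie close to 0.

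**Figure D5:**
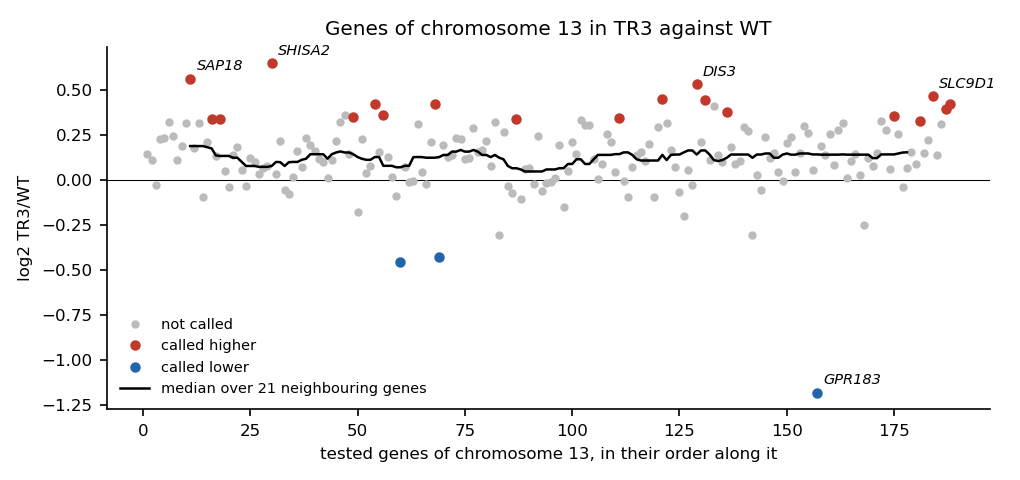
Log2 difference between TR3 and WT of the 188 tested genes of chromosome 13, in their order along it; red and blue points were called higher and lower, and the black line is the median over 21 neighbouring genes. The line stays above 0 from one end to the other, between 0.05 and 0.19, while GPR183 lies far below it.

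The contrasts of chromosome 13 genes with the sister subclones use the same 2 TR3 arrays in which the pattern was picked out, and so are no independent support. The median of the same genes was 0.18 for TR3 minus TR1 and 0.18 for TR3 minus TR2, with medians of the other chromosomes from -0.02 to 0.01 and from -0.01 to 0.03. In TR1 and TR2 the median against WT was -0.03 and -0.02. Of the 19 genes, chosen for being raised against WT on these TR3 arrays, 11 were called higher in TR3 than in TR1 and 11 higher than in TR2, and no value for unselected genes stands beside these counts.

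Direct contrasts with TR1 and TR2, in which WT does not enter, show which genes called against WT were also called against the sister subclones. Over all genes, 834 were called between TR3 and TR1 (7.95%) and 436 between TR3 and TR2 (4.16%). The genes raised or lowered against WT were chosen on the same 2 TR3 arrays, so calls in the same direction are favoured in advance. The counts that follow are therefore no independent support, and the shares over all genes, in either direction, are not like for like. Of the 107 genes raised against WT, 53 were also higher than in TR1, 4 were lower than in TR1 and 50 had no call. Against TR2 the counts were 38, 1 and 68. Of the 153 lowered genes, 39 were also lower than in TR1, 13 higher and 101 without a call, and against TR2 56, 4 and 93. In total 22 genes were higher and 13 lower in TR3 than in WT, TR1 and TR2 alike. These counts were 1 and 1 without the replicate block, 3 and 1 without TR3 replicate 1, 4 and 4 without TR3 replicate 2, 12 and 8 without TR2 replicate 1, 5 and 8 without TR2 replicate 2, and 6 lower without TR1 replicate 2. A further 35 raised and 65 lowered genes had no call against TR1 or TR2, which does not show that the subclones were alike there.

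Genes in which TR3 stood below all 3 other lines included PLK1, which read 397 and 401 in TR1 and 377 and 434 in TR2 and differed in TR3 by -0.48 (adjusted p = 0.0013, limma) and -0.50 (0.0016). ZNF544, not detected in TR3, read 73.2 and 79.4 in TR1 and 274 and 247 in TR2 (adjusted p = 0.016 and 9.6e-12). RGS18, a regulator of G protein signalling, read 77.5 and 79.4 in TR3 and 141 and 121 in WT, with differences of -0.74 ± 0.09 from WT (0.0001), -0.40 from TR1 and -0.74 from TR2. Against WT, AMMECR1 fell by 0.56 ± 0.09, IQGAP2, a scaffold protein gene, fell by 0.56 ± 0.08, the non-coding RNA gene CCDC26 fell by 0.52 ± 0.08, the neural factor NEUROG2 fell by 0.44 ± 0.10 and NOLC1, a nucleolar protein gene, fell by 0.40 ± 0.09. Higher than in all 3 other lines were AHNAK, which encodes a large scaffold protein and read 284 and 237 in TR3 and 197 and 152 in WT (0.59 ± 0.08, adjusted p = 0.00045), MFHAS1 (0.60 ± 0.09), SAP18 and GTSF1, a gene of the piRNA pathway (0.56 ± 0.12). ZBTB16 was also highest in TR3, by 0.56 over TR1 (0.00047) and 0.35 over TR2 (0.037), and so were BST2, HEPN1 and MYT1. A second AHNAK probe, near background, gave 0.16 ± 0.08 with no call. NEUROG2 lost its call against WT without replicate 1 of TR3 or WT (adjusted p up to 0.33), and NOLC1 and GTSF1 without either TR3 array or WT replicate 1 (up to 0.42 and 0.25). Without the block IQGAP2 (0.14), NEUROG2 (0.29), NOLC1 (0.21), AHNAK (0.18), MFHAS1 (0.071) and GTSF1 (0.29) were not called.

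Several leading genes went opposite ways in the sister subclones. TXNIP read 740.4 and 1211 in TR1, above its undetected level in TR3 (adjusted p = 3.5e-12, limma), against 69.4 and 58.0 in TR2, where 1 array detected it and the contrast with TR3 was not called (0.6). GPR183 read 994 and 650.1 in TR2, and 69.2 and 81.3 in TR1, where 1 array detected it. ANXA1 read 5163 and 4564 in TR1 and 616 and 483 in TR2, so that TR3 lay between the subclones, with differences of -2.30 from TR1 (9.1e-10) and 0.86 from TR2 (0.00043). SH3GL2 also lay between them, with differences of 0.81 from TR1 and -2.40 from TR2. FGD3 read 519 and 508 in TR1 and 132 and 81.5 in TR2, with differences of -0.67 and 1.64. CFLAR, level between TR3 and WT, differed in TR3 from TR1 by -0.73 (1e-05) and from TR2 by 0.38 (0.013). For MDK, YAP1, JCHAIN and IFIH1 no difference between TR3 and either sister subclone was called (adjusted p from 0.25 to 0.98). YAP1 and JCHAIN were not detected on any array of TR3, TR1 or TR2, so their contrasts compare background values and cannot show a difference.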

How the data were processed

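RNA of each sample was amplified, labelled with biotin and hybridised to an Illumina HumanRef-8 BeadChip with 22184 probes, per the labels' protocols. The authors deposited a linear intensity and a detection p-value for each probe on each array, per the file headers, and processed intensities of the same arrays, whose log2 was taken here. The processed columns share 1 distribution, with a median of 77.2, as after quantile normalisation. The submitters' processing notes name limma without version or role, and the sources used here give no scanner software, bead summary or background step. No background subtraction is evident, so log2 differences of dim genes are compressed. The letters of the raw columns (A, B) were not matched to the replicate numbers, and 0 columns were left unmatched to a line.

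Tested were probes whose detection p-value was under 0.05 on both TR3 or both WT arrays (12843 probes, 10490 genes). limma 3.58.1 in R 4.3.3 fitted the 4 line means with the replicate number as a block over all 8 arrays (3 residual and 16.5 prior degrees of freedom), and calls were made below an adjusted p of 0.05 (Benjamini-Hochberg, over all probes tested). Replicate 2 minus replicate 1 differences correlated between lines in all 6 pairs (r from 0.288 to 0.447 across probes, which are not independent), so the numbers pair the samples. A gene with several probes is represented by the tested probe with the highest mean. Of the probes, 19715 had 1 gene symbol and 2469 none, and 19695 symbols were updated through RefSeq GRCh38.p14, used only for names, gene order and promoters. A probe detected on neither array of a line has a bound: the brighter line's mean log2 value against the mean, per dim array, of the higher of its own value and the lowest processed value of a probe detected on both arrays of that line. Named genes are up to 12 called each way by size, Y-linked genes left out, up to 8 each way called alike against WT, TR1 and TR2, every called member of 32 lists (594 genes), the tested genes of the 2 TRAIL lists and up to 2 uncalled genes of each other list by p. Chromosome 13 genes were added after values were seen. Members and lists were chosen with earlier results of these data known. On simulated data (20 draws of 12843 probes, 200 changed) the TR3 against WT fit recovered 98.2% of probes changed 1.5-fold and 100% at 2-fold and 4-fold, with 5.2% of calls false. The simulated data held a replicate shift shared by all lines, as the block assumes, and spreads drawn from the fitted prior. They therefore do not test whether the block suits the measured arrays. The alternatives were no block, 4 arrays alone, normexp background correction (offset 16), a pseudocount of 16, other filters on dim probes, a detection p-value under 0.01, a trended robust prior, array weights and leaving out each array. The number of arrays limits the precision.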

Additional observations from a re-analysis of the deposited data

Results flagged for a closer look

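Of the 74 named genes called between TR3 and WT, 62 also differed in TR3 from TR1 or TR2, and 28 differed from both. Those 28 are given here, since the change from WT then differed between subclones by a direct test (limma, adjusted p under 0.05). Some of them were named for being called alike against WT, TR1 and TR2, and all contrasts use the same 2 TR3 arrays. The counts of 62 and 28 are thus partly set by the choice of genes and are no independent support. Values are the log2 difference of TR3 from TR1 and then from TR2. Higher than in both sister subclones were GTSF1 (2.03 and 0.84), BST2 (1.25 and 0.69), HEPN1 (0.95 and 0.49), MYT1 (0.81 and 0.41), MFHAS1 (0.64 and 0.35), AHNAK (0.58 and 0.75) and ZBTB16 (0.56 and 0.35). On chromosome 13 so were DIS3 (0.56 and 0.48), SAP18 (0.47 and 0.44), FGF9 (0.45 and 0.45), NHLRC3 (0.43 and 0.58), SLC9D1 (0.35 and 0.46), USPL1 (0.31 and 0.36) and NEK3 (0.31 and 0.34). GIMAP4 was also higher than in both (0.59 and 1.36), although it was lower than in WT. Lower than in both were PTPRC (-0.76 and -0.48), CD1B (-0.48 and -1.28), PLK1 (-0.48 and -0.50), NOLC1 (-0.46 and -0.50), RGS18 (-0.40 and -0.74), ZNF544 (-0.40 and -2.17, not detected in TR3, so these are fitted values and no bounds), NEUROG2 (-0.35 and -1.01), CCDC26 (-0.32 and -1.45), AMMECR1 (-0.31 and -1.004) and IQGAP2 (-0.28 and -0.32). Between the sister subclones lay ANXA1 (-2.30 and 0.86), FGD3 (-0.67 and 1.64) and SH3GL2 (0.81 and -2.40).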

How the results depend on the processing

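All 74 named genes called against WT kept their direction under the 18 alternatives that held them. The replicate block decided most calls: without it 11 probes were higher and 28 lower than in WT in place of 131 and 179, 23 of the 74 named genes stayed past the threshold, and 1 gene was higher and 1 lower than in WT, TR1 and TR2 together in place of 22 and 13. With background-corrected non-normalized intensities and no block the counts were 11 and 29 probes, 20 named genes, and 1 and 0 genes against all 3 lines (limma, 49 lower at an unadjusted p under 0.05). With array weights 34 genes were higher than in all 3 lines. Leaving out 1 array at a time gave 26 to 182 probes higher and 46 to 231 lower than in WT, and 3 to 19 genes higher and 1 to 10 lower than in all 3 lines. Of the 74 named genes, 36 kept their call without TR3 replicate 1, 35 without TR3 replicate 2, 54 without WT replicate 1, 45 without WT replicate 2 and 65 without either TR2 array, and 29 kept it whichever array was left out. These fits hold fewer samples. The fit on the 4 arrays alone kept 73, the stricter detection threshold 74, the pseudocount 72 and no filter 72. The cause of the other changes was not tested. Dim probes limit what can be seen: a level near background has a compressed difference or only a bound.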

Other observations

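Chromosome 21 had the lowest share of genes above WT in TR3, 35.8% of 109 genes, with a median of -0.05 in TR3, -0.06 in TR1 and -0.09 in TR2. These comparisons share the WT arrays, and the median of the direct contrasts was 0.01 for TR3 minus TR1 and 0.02 for TR3 minus TR2. CD69, an early activation marker of T cells singled out after its values were seen, read 163 and 176 in TR3 and 165 and 347 in WT, so that WT replicate 2 stood apart and the difference was not called (-0.50 ± 0.16, adjusted p = 0.12, limma).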
